A study of Mus musculus with 4 samples.

Results

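The 39 genes described here build cholesterol and fatty acids, move sterols in and out of the cell, or control those tasks through the sterol regulatory element-binding proteins (SREBPs). They were taken as every probe set whose single platform gene symbol was on the list, a rule that uses no measured value. The list itself was chosen with earlier results of these data known. Of the 39 genes, 36 had such a probe set, among 18193 genes named on the array. Signals of Acat2, Nr1h2 and Soat1 were not analysed here. The 36 genes had 81 probe sets, and 68 of these, for 35 genes, lay in the brighter 50% of all probe sets and were tested. Abcg1 was below that boundary, a signal near 62.8. The list has 16 genes of sterol synthesis (15 tested), 5 SREBP regulators (5 tested), 9 genes of sterol uptake, transport and export (6 tested) and 9 genes of fatty acid synthesis (9 tested).

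RNA was hybridised to 4 Affymetrix arrays, 1 a sample. The cells were immortalised MEFs, fibroblasts from mouse embryos that grow in culture, all homozygous for a loxP-flanked PA1 allele. Cells infected with a retrovirus for Cre recombinase, which cuts out DNA between loxP sites, were labelled PA1 -/- (knockout, 2 arrays), and cells given the empty retroviral vector were labelled PA1 +/+ (wild type, 2 arrays). The wild-type cells thus carried the loxP sites and the vector too, and both cultures went through puromycin selection in medium with fetal bovine serum. The stated aim was to find genes regulated by PA1, read here as Pagr1a, whose product sits in the histone methyltransferase complexes of KMT2C and KMT2D. The duplicates of each genotype are numbered 1 and 2. Whether they came from separate cultures, and whether the infected cells were a pool or a clone, is not stated, so p-values reflect spread between arrays that may be technical.

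SREBPs are made as precursors in the membrane of the endoplasmic reticulum. When membrane sterol is low, the escort protein SCAP carries them to the Golgi, where proteases release the active factor, while INSIG proteins hold SCAP back when sterol is plentiful. SREBP2 mainly drives genes of cholesterol synthesis and uptake, and SREBP1 mainly those of fatty acid synthesis. Liver X receptors (LXRs) sense oxidised sterols and induce export genes. In fibroblasts the pathway supplies membrane lipid during growth, and cultured cells also take sterol from serum.

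Values per array are linear MAS5 signals, in arbitrary units of brightness, with each pair in the order of replicate numbers 1 and 2. Differences are knockout minus wild type on the log2(signal + 9.96) scale, with the standard error (SE) of limma's fit, and those within a number come from 1 array of each genotype. Pagr1a read 108 and 113 in the knockout arrays against 1340 and 1389 in the wild-type arrays, a log2 difference of -3.51 (SE 0.249), with an adjusted p of 0.876 by limma. Array medians ran from 63.2 to 66.4. Log2 signals of tested probe sets correlated at 0.971 for the knockout and wild-type pair numbered 1 and 0.977 for the pair numbered 2, but at 0.920 within knockout and 0.918 within wild type. Arrays sharing a number were thus more alike than arrays sharing a genotype. All 10 fibroblast markers were above the filter. Of 4 adipocyte markers with a probe set, Fabp4 alone was above it, and the adipocyte hormone gene Adipoq read 18.2 to 19.97 in knockout and 17.8 to 21.7 in wild-type arrays. Their summed signal was 116 to 489 in knockout and 338 to 448 in wild-type arrays. Above the filter were also 2 of 5 macrophage and blood, 2 of 5 epithelial, 1 of 4 endothelial and 0 of 3 hepatocyte markers. In bulk RNA, fewer cells of a type and less RNA per cell cannot be told apart.

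Promoter windows from RefSeq (GRCm38.p6, 250 bases before to 50 after a transcript start) were found for 30 of the 39 genes, 39 windows in all. They were searched on both strands for a sterol regulatory element (TCACNCCAC), the CCAAT box bound by NF-Y, a partner of SREBPs on many sterol promoters, and the E-box CACGTG, which SREBP1 can also bind. The windows of Hmgcs1, Mvd and Tm7sf2 are shown as sterol synthesis genes that were lower in knockout arrays at both numbers, and that of Fasn as a fatty acid gene that was not. Capitals mark matches.
Hmgcs1: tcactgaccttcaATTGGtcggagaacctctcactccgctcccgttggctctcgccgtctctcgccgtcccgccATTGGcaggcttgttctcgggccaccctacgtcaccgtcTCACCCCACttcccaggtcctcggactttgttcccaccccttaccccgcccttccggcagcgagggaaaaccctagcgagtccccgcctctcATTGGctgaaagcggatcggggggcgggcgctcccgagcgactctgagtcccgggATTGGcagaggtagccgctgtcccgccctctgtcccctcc
Mvd: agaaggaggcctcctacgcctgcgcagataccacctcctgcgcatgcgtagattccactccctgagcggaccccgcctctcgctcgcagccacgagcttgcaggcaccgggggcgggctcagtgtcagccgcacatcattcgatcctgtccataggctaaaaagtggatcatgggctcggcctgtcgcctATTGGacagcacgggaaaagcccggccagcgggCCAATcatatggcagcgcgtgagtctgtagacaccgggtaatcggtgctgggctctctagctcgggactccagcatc
Tm7sf2: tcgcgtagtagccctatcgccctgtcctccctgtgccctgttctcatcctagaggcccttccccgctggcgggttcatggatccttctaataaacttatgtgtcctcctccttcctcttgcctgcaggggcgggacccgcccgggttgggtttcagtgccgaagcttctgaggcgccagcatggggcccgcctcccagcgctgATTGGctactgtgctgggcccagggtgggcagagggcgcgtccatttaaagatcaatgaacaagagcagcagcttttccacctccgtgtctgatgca
Fasn: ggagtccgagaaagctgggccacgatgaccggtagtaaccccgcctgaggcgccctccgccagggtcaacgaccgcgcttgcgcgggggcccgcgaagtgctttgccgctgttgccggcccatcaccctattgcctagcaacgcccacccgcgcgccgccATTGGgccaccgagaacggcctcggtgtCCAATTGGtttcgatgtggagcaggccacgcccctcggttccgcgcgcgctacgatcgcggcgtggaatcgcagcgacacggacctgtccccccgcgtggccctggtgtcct

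These windows lie at chr13:119690101-119690400 (+ strand) for Hmgcs1, chr8:122443373-122443672 (- strand) for Mvd, chr19:6067801-6068100 (- strand) for Tm7sf2 and chr11:120824498-120824797 (- strand) for Fasn, each printed 5′ to 3′ along its gene. Position 1 is the transcript start and -1 the base before it. Hmgcs1 held the match TCACCCCAC at position -137, and it was the 1 window of 39 with a sterol regulatory element, against 1.24% of all 32851 windows. It also had 4 CCAAT boxes on the reverse strand, the nearest upstream one at -45. Mvd had CCAAT boxes at -60 and -27, Tm7sf2 at -47, and Fasn at -90, -62 and -59, the last 2 of which overlap.

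CCAAT boxes stood in the windows of 12 of 13 sterol synthesis genes (12 of 16 windows), against 37.4% of all windows. The exception was Acat2. They stood in 4 of 5 regulator genes (5 of 10 windows), 3 of 6 genes of uptake, transport and export, and 2 of 6 fatty acid genes, Acly and Fasn. E-boxes stood in 6 of 39 member windows, of Dhcr7, Hsd17b7, Insig1, Scap and Abca1, against 7.15% of all windows. Scap was counted by overlapping windows that hold the same E-box. A match is a description of the sequence only.

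All 15 tested genes of sterol synthesis, the chain of enzymes that turns acetyl units into cholesterol, had a lower signal in knockout than in wild-type arrays at both replicate numbers. Of all 10714 tested genes, 29.3% did so. The median log2 difference of the 15 genes was -0.48, from -0.83 (Mvd) to -0.18 (Hsd17b7), against 0.02 over all tested genes. Within number 1 the median was -0.32 (0.04 over all genes), and within number 2 it was -0.60 (-0.00 over all genes). The 15 genes had 28 tested probe sets, which read the same genes on the same arrays, and 26 were lower at both numbers. After median scaling of the arrays 13 of the 15 genes were, since Sqle and Hsd17b7 differed by 0.01 and 0.05 at number 1.

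**Figure D1:**
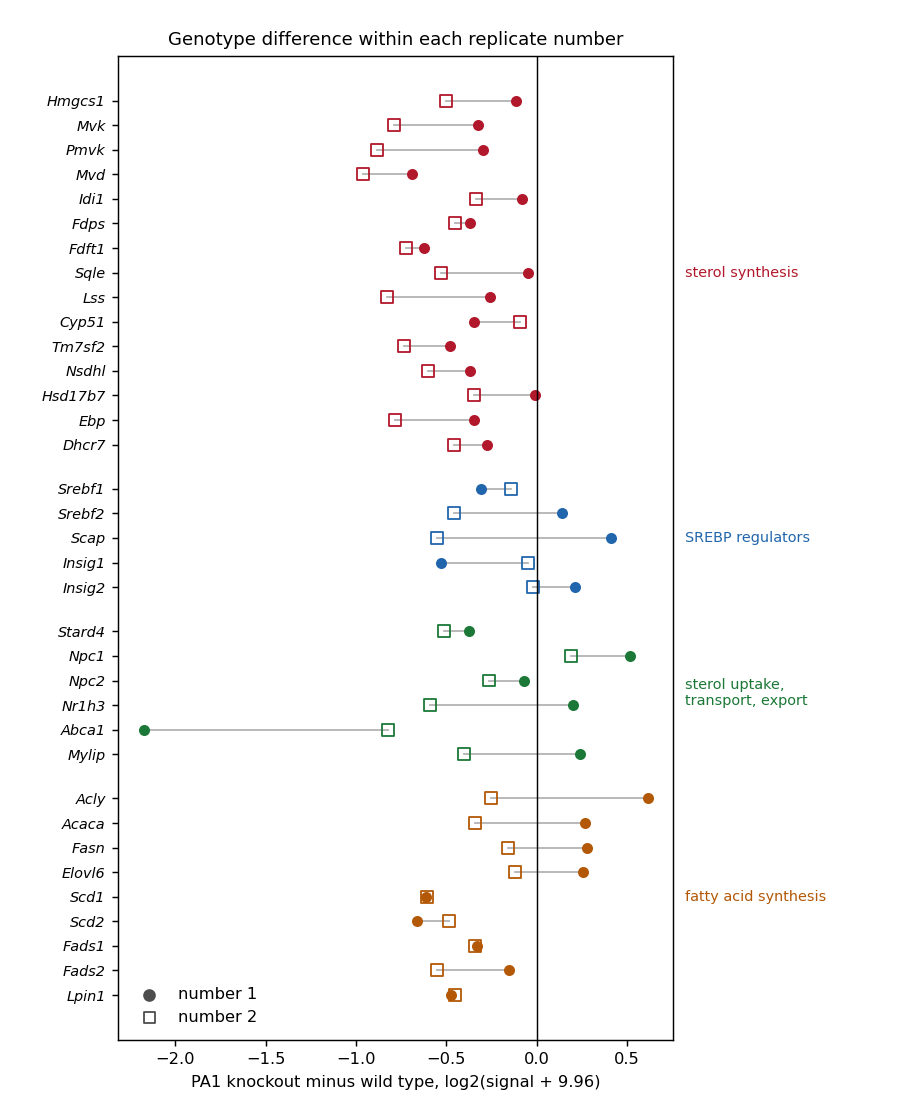
Log2 difference in signal between PA1 knockout and wild type (x axis, log2(signal + 9.96)) for the 35 tested genes (y axis, grouped), with filled circles for the arrays numbered 1 and open squares for those numbered 2. All 15 sterol synthesis genes lie left of 0 at both numbers (13 of the 15 after median scaling), while Acly, Acaca, Fasn and Elovl6 lie on opposite sides.

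The early enzymes make mevalonate and turn it into isoprene units. Mvd, the decarboxylase that makes isopentenyl diphosphate, read 806 and 1111 in knockout against 1306 and 2174 in wild-type arrays. Both knockout arrays were below both wild-type arrays, and the log2 difference was -0.83 (SE 0.355), with -0.69 at number 1 and -0.96 at number 2. A second probe set of Mvd gave -0.86, at 843 and 908 in knockout against 1312 and 1939 in wild-type arrays. Mvk, mevalonate kinase, read 1235 and 1052 in knockout against 1549 and 1828 in wild-type arrays, again without overlap (-0.56, SE 0.241), and its second probe set gave -0.68. Pmvk, the kinase after it, read 1229 and 448 in knockout against 1511 and 836 in wild-type arrays. Its difference was -0.59 (SE 0.587), and the genotypes overlapped because both arrays numbered 1 were brighter than both arrays numbered 2.

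Hmgcs1, the cytosolic synthase that opens the pathway, read 5735 and 7849 in knockout against 6213 and 11110 in wild-type arrays. Wild type number 2 was the highest array, the genotypes overlapped, and the difference was -0.31 (SE 0.342). Its other 4 probe sets gave -0.17 to -0.66, and 1 of them was above 0 at number 2 (0.06). Idi1, which interconverts the isoprene units, read 2828 and 5362 in knockout against 2995 and 6770 in wild-type arrays (-0.21, SE 0.513). It was 0.92 higher at number 2 than at number 1 in knockout cells and 1.17 higher in wild-type cells, so that the number of the array moved it more than genotype did.

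Fdps and Fdft1 join isoprene units into farnesyl diphosphate and squalene. Fdft1, squalene synthase, read 3072 and 3933 in knockout against 4739 and 6494 in wild-type arrays, with no overlap. Its difference was -0.67 (SE 0.252), with -0.62 at number 1 and -0.72 at number 2. This probe set is of a type that can bind related transcripts by the maker's naming, and a second probe set without that mark gave -0.48, with overlap between genotypes. Of its 2 probe sets below the filter, 1 gave -0.69 and the other, at signals of 6.87 to 47.4, gave 0.52. Fdps read 8764 and 10554 in knockout against 11312 and 14442 in wild-type arrays, also without overlap (-0.41, SE 0.195), while a dim probe set at 2.60 to 10.97 gave -0.33.

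The later enzymes oxidise squalene, close the rings and trim lanosterol to cholesterol. Sqle, squalene epoxidase, read 4126 and 4963 in knockout against 4270 and 7165 in wild-type arrays (-0.29, SE 0.304), so the genotypes stood close at number 1 (-0.05) and apart at number 2 (-0.53). Lss, lanosterol synthase, read 1126 and 1212 in knockout against 1349 and 2159 in wild-type arrays (-0.54, SE 0.309), and both knockout arrays were lower. A second tested probe set of Lss gave -0.48 and a dim one 0.00. Cyp51, the lanosterol demethylase, read 1843 and 2196 in knockout against 2342 and 2342 in wild-type arrays. The genotypes of Cyp51 did not overlap, with a difference of -0.22 (SE 0.215), and other probe sets gave -0.61 and -0.08.

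Ebp, the sterol isomerase, read 2853 and 2069 in knockout against 3633 and 3565 in wild-type arrays, with no overlap and a difference of -0.56 (SE 0.239). Tm7sf2, a sterol reductase, read 457 and 645 in knockout against 640 and 1077 in wild-type arrays (-0.60, SE 0.372). The knockout array numbered 2 and the wild-type array numbered 1 were level, so the genotypes of Tm7sf2 overlapped. Nsdhl, a sterol dehydrogenase, read 1750 and 3391 in knockout against 2260 and 5148 in wild-type arrays (-0.48, SE 0.527), again with a larger step between numbers than between genotypes. Dhcr7, the reductase of the last step, read 476 and 615 in knockout against 578 and 847 in wild-type arrays (-0.36, SE 0.319). Hsd17b7, a sterol keto reductase, read 718 and 747 in knockout against 722 and 953 in wild-type arrays (-0.18, SE 0.267), and its other probe sets gave -0.15 to -0.55.

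**Figure D2:**
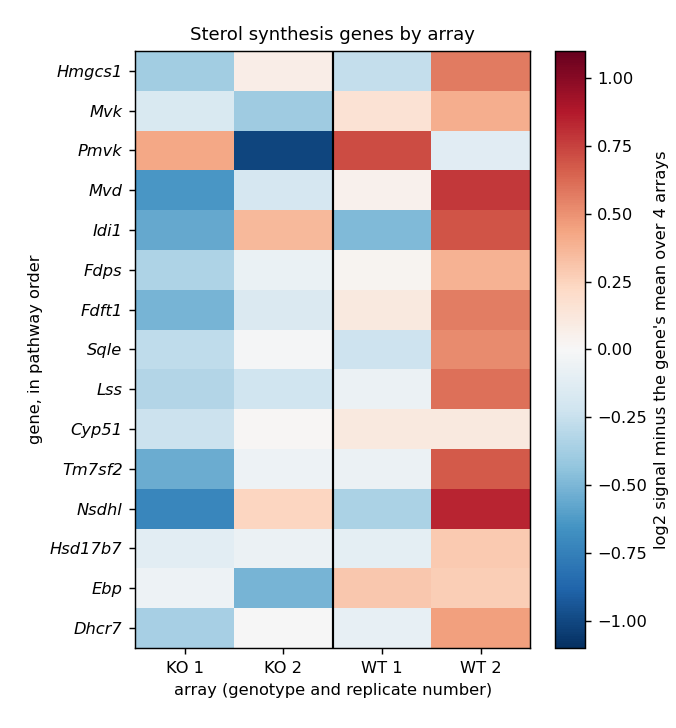
Log2 signal of the 15 tested sterol synthesis genes (rows, in pathway order) on each array (columns, knockout then wild type), as the difference from the gene's mean over 4 arrays. Wild type number 2 is the brightest array for 12 of the genes (Mvd and Fdft1 among them), and Pmvk and Ebp are dimmer at number 2 than at number 1 in both genotypes.

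Without overlap between genotypes, 7 of the 15 genes were lower in knockout arrays (Mvk, Mvd, Fdps, Fdft1, Lss, Cyp51 and Ebp), against 11.3% of all tested genes. None of the 15 was higher without overlap, against 15% of all. At least 1.5-fold lower at both numbers were Mvd and Fdft1, against 2.55% of all. The difference was more negative at number 2 than at number 1 for 14 of the 15 genes, all but Cyp51, and for 5971 of all 10714 genes. The numbers themselves also stood apart for this set. Signals at number 2 minus number 1 had a median of 0.27 in knockout and 0.54 in wild-type arrays, against -0.03 and 0.02 over all genes. Higher at number 2 in both genotypes were 11 of the 15, while Pmvk and Ebp were lower. Over all 10714 genes, 4059 were higher and 4180 lower at number 2 in both genotypes. The median genotype difference depended on single arrays, at -0.22 without wild type number 2 and -0.28 without knockout number 1, in fits that hold unequal numbers in the genotypes and so carry part of the difference between numbers. The summed signal of the 10 fibroblast markers was 80105 to 89977 in knockout and 89659 to 110101 in wild-type arrays. Of the 10 markers, 6 were lower in knockout at both numbers, against 29.3% of all tested genes. Twist1 alone was higher at both, against 33.9%. Pdgfra read 134 and 210 in knockout against 1515 and 357 in wild-type arrays (-2.07), and Pdgfrb read 1571 and 2807 in knockout against 3694 and 3482 in wild-type arrays (-0.77), neither with overlap. The part of these markers in the sterol result was not tested.

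No tested member passed limma's moderated test across all 22519 probe sets with genotype as the only term, at an adjusted p under 0.05. The share of all probe sets that passed was 0%, and every member had an adjusted p of 0.9998. At an unadjusted p under 0.05 stood 3 of the 35 members, Scd2 (0.0111), Abca1 (0.0187) and Fdft1 (0.0468), against 2.16% of all genes. The smallest p that an exact permutation test could reach with 2 arrays a genotype is 0.333. This fit counts any difference between numbers as spread, so differences within each number are plotted for every tested member, and given in the text for some, as descriptions.

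Among the regulators, Srebf1 and Insig1 read lower in knockout at both numbers, while Srebf2, Scap and Insig2 read higher at number 1 and lower at number 2. The 5 genes had a median difference of -0.16, with 0.14 at number 1 and -0.14 at number 2, and 2 of the 5 were lower at both numbers. That count is to be read against the 29.3% of all genes, and the change of sign against 2227 of all 10714. Srebf2, which encodes SREBP2, read 1300 and 1336 in knockout against 1178 and 1837 in wild-type arrays. Wild type number 2 was the highest and wild type number 1 the lowest, so its difference was 0.14 at number 1 and -0.46 at number 2. A second probe set of Srebf2 gave 0.11 and -0.48. Srebf1, for SREBP1, read 1688 and 915 in knockout against 2095 and 1009 in wild-type arrays (-0.22, SE 0.493), and its signal at number 2 minus number 1 was -0.88 in knockout and -1.05 in wild-type cells.

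Scap read 2688 and 1460 in knockout against 2020 and 2148 in wild-type arrays. The wild-type arrays of Scap lay between the knockout arrays, with a difference of 0.41 at number 1 and -0.55 at number 2, and its dimmer second probe set gave -0.58 and -0.44. Insig1, which retains SCAP and is itself an SREBP target, read 1340 and 2807 in knockout against 1940 and 2896 in wild-type arrays (-0.29, SE 0.439). Its difference was -0.53 at number 1 and -0.04 at number 2, and it was higher at number 2 in both genotypes. Insig2, the second retention protein, read 1230 and 937 in knockout against 1061 and 949 in wild-type arrays (0.10, SE 0.264), and its other probe sets gave 0.10 and -0.22. The median of the regulators was 0.21 with knockout number 2 left out and -0.00 with wild type number 2 left out.

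Sterol export and sterol transfer genes differed from each other. Abca1, the transporter that loads cell cholesterol onto lipoproteins and an LXR target, had the most negative difference of all tested members. It read 90.7 and 123 in knockout against 445 and 225 in wild-type arrays, a mean of 107 ± 22.9 against 335 ± 155 (SD, n = 2 each). Both wild-type arrays were above both knockout arrays, by more at number 1 (-2.18) than at number 2 (-0.82), and the log2 difference was -1.50 (SE 0.428), or 2.83-fold. Its other 2 probe sets lay below the filter, at 2.18 to 35.7, and gave 0.36 and 0.46. Abcg1, a related LXR-induced exporter, was below the filter as well, at 47.1 and 57.0 in knockout against 37.2 and 38.7 in wild-type arrays. Those dim readings of Abcg1 were higher in knockout, opposite to the bright probe set of Abca1.

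Nr1h3, which encodes LXR alpha, lay just above the filter, at 72.5 and 63.2 in knockout against 61.8 and 100.2 in wild-type arrays. Its difference changed sign between numbers (0.20 and -0.59). Mylip, an LXR-induced ligase that marks lipoprotein receptors for breakdown, read 573 and 799 in knockout against 484 and 1056 in wild-type arrays, and also changed sign (0.24 and -0.40). The wild-type arrays of Nr1h3 and Mylip spanned the knockout arrays. Stard4, a cytosolic sterol carrier induced by SREBP2, read 1379 and 2253 in knockout against 1791 and 3212 in wild-type arrays. It was lower at both numbers (-0.37 and -0.51), as were its other 2 probe sets.

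Npc1 and Npc2 carry sterol out of the lysosome. Npc1 read 367 and 505 in knockout against 254 and 441 in wild-type arrays, and it was the 1 tested member higher at both numbers (0.52 and 0.19), against 33.9% of all tested genes. Npc2 read 11304 and 12589 in knockout against 11853 and 15117 in wild-type arrays by its brightest probe set (-0.17, SE 0.177). Another bright probe set of Npc2 gave -0.19. A dimmer one gave 0.62, with 275 and 476 in knockout against 174 and 309 in wild-type arrays, and one below the filter gave 0.91, so the probe sets of Npc2 differed in sign. After quantile normalization the brightest one was at 0.05 at number 1. The 6 tested genes of uptake, transport and export had a median of -0.18, with 3 of the 6 lower at both numbers against 29.3% of all tested genes, and each array moved that median. It was -0.09 with knockout number 1 left out, -0.28 with knockout number 2, -0.57 with wild type number 1 and 0.06 with wild type number 2 left out.

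Among the fatty acid genes, the 4 desaturases, which put double bonds into fatty acids, were lower in knockout arrays at both numbers and without overlap between genotypes, as 29.3% and 11.3% of all tested genes were. The 4 enzymes that build and lengthen the saturated chain were higher in knockout at number 1 and lower at number 2. Over all 10714 tested genes, 2227 had that change of sign. The grouping into desaturases and chain enzymes was made after the values had been seen, so it has no test. The 9 genes together had a median of -0.34, with -0.15 at number 1 and -0.34 at number 2, and 5 of the 9 were lower at both numbers, against 29.3% of all. That median was 0.14 with wild type number 2 left out and -0.16 with knockout number 1 left out.

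Scd2, a stearoyl-CoA desaturase gene known for its expression in mouse brain, read 8723 and 8824 in knockout against 13821 and 12364 in wild-type arrays. The arrays of each genotype stood close together, at 8774 ± 71.3 and 13093 ± 1030 (SD, n = 2 each), and the log2 difference was -0.57 (SE 0.143). Its other 2 probe sets gave -0.66 and -0.95. Scd1, the related desaturase that SREBP1 and LXR induce, read 2797 and 2017 in knockout against 4275 and 3073 in wild-type arrays. Scd1 differed by -0.61 at number 1 and -0.61 at number 2 (SE 0.286), and it was at least 1.5-fold lower at both, as Abca1, Mvd and Fdft1 were. A second probe set of Scd1 gave -0.89.

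Fads1 and Fads2 desaturate polyunsaturated fatty acids. Fads1 read 2731 and 2423 in knockout against 3438 and 3074 in wild-type arrays, with differences of -0.33 and -0.34, and a second probe set gave -0.68. Fads2 read 1897 and 1910 in knockout against 2111 and 2804 in wild-type arrays (-0.35, SE 0.239), where wild type number 2 stood apart, and its other probe sets gave -0.27 and -0.76. Over the 4 genes, all 10 tested probe sets were lower at both numbers. These probe sets read the same 4 genes on the same arrays, so they are not further replicates. Of the adipocyte markers, a cell type rich in desaturase RNA, Fabp4 read 70.2 and 462 in knockout against 297 and 407 in wild-type arrays (-1.94 at number 1 and 0.18 at number 2). Adipoq was below the filter, and the part of this cell type in the result was not tested.

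**Figure D3:**
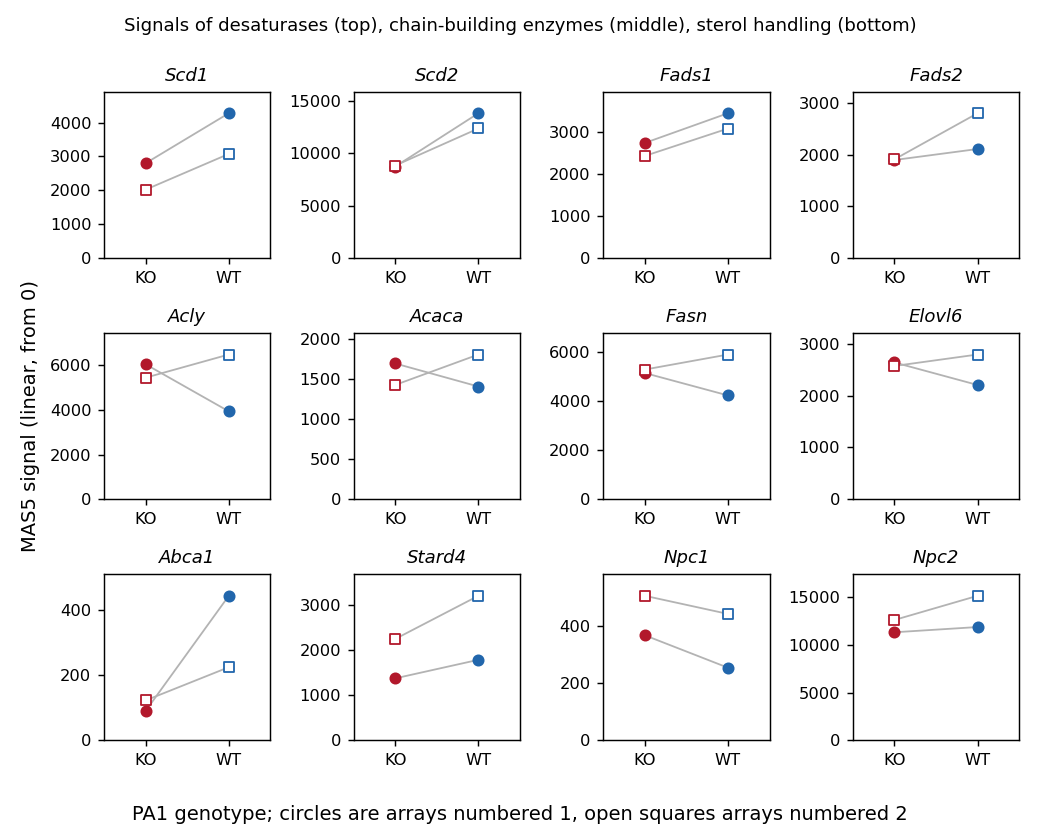
MAS5 signal (y axis, linear from 0) by genotype (x axis, knockout left) for 12 genes, with filled circles for arrays numbered 1 and open squares for arrays numbered 2, joined within a number. The desaturases in the top row slope the same way at both numbers, while the lines of Acly, Acaca, Fasn and Elovl6 run in opposite directions.

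Acly, which makes the cytosolic acetyl-CoA that both pathways use, read 6039 and 5437 in knockout against 3931 and 6475 in wild-type arrays. Its difference was 0.62 at number 1 and -0.25 at number 2, and its other tested probe sets gave 0.55 and -0.04. Acaca, acetyl-CoA carboxylase, read 1698 and 1430 in knockout against 1410 and 1811 in wild-type arrays, with 0.27 and -0.34. Fasn, fatty acid synthase, read 5160 and 5302 in knockout against 4243 and 5918 in wild-type arrays, with 0.28 and -0.16. Elovl6, which lengthens palmitate, read 2641 and 2572 in knockout against 2205 and 2794 in wild-type arrays, with 0.26 and -0.12. In all 4 genes the knockout arrays lay between the wild-type arrays, which were low at number 1 and high at number 2. Of their 9 tested probe sets, which read the same 4 genes, 8 had this change of sign. The exception was a dim one of Elovl6 (-0.01 and -0.27). The genotype differences of the 4 were between -0.04 and 0.18, with standard errors of 0.222 to 0.287.

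Lpin1, a phosphatidate phosphatase of triglyceride synthesis, read 227 and 579 in knockout against 319 and 795 in wild-type arrays (-0.46, SE 0.646). Its signal at number 2 minus number 1 was 1.31 in knockout and 1.29 in wild-type cells, larger than its genotype difference, and a second probe set gave 0.02.

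Across the 35 tested members, 25 were lower at both numbers, 1 was higher at both and 9 were higher at number 1 and lower at number 2. Over all 10714 genes these counts were 3134, 3632 and 2227. The median of the members was -0.31. Leaving out wild type number 2 gave -0.02, knockout number 1 gave -0.16 and wild type number 1 gave -0.55.

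Other genes of the same pathways, on a list of 46, were read in the same fit. That list was chosen by function, with earlier results of these data known. Of the 46 genes, 42 had a probe set and 36 were tested. Their median was -0.04, with 12 of the 36 lower and 12 higher at both numbers, shares near the 29.3% and 33.9% of all tested genes. None of the list (0 of 36) passed at an adjusted p under 0.05, while 1 stood at an unadjusted limma p under 0.05. The 6 tested genes that process or degrade SREBPs and their partners, which include the protease genes Mbtps1 and Mbtps2, were all higher in knockout at both numbers, against 33.9% of all tested genes, with a median of 0.22 against 0.02 over all genes. After quantile or cyclic loess normalization 5 of these 6 were. Ubxn8, at 0.02 at number 1 without such normalization, was then below 0 there (-0.05 and -0.06). A second tested probe set of Mbtps1 gave -0.21 at number 1 and 0.46 at number 2. Below the filter, a probe set of Mbtps1 gave -0.25 and 0.45 and one of Erlin1 gave 0.67 and -1.37. That of Rnf139 gave 0.13 and 0.31. Mbtps2 read 1000 and 1208 in knockout against 854 and 885 in wild-type arrays (0.33, SE 0.244), and Rnf139 read 1725 and 1929 in knockout against 1294 and 1745 in wild-type arrays (0.28, SE 0.257). These processing genes, and the 6 in or near sterol synthesis below, were named after their values had been seen.

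The 6 tested genes of that list in or near sterol synthesis were Sc5d, Msmo1, Ggps1, Cyb5r3, Acat1 and Tmem97. Of these, 2 were lower at both numbers, against 29.3% of all tested genes. Another 1 of the 6 was higher at both, against 33.9%, and the median of the 6 was -0.10. Sc5d was at -0.24 and Tmem97 at -0.22, while Msmo1 differed in sign between numbers (0.14 and -0.21). Of the 9 tested genes of uptake, transport and oxysterols, 5 were lower at both numbers, against 29.3% of all tested genes. Vldlr, a lipoprotein receptor gene, read 72.0 and 49.4 in knockout against 413 and 80.8 in wild-type arrays (-1.49, SE 0.789), with wild type number 1 far above the rest. By this probe set it was the 1 tested gene of the list at least 1.5-fold lower at both numbers, against 2.55% of all tested genes. The probe set is of the type that can bind related transcripts. Other probe sets of Vldlr, all below the filter, gave -0.17 to -1.40. They ran from -0.47 to -2.51 at number 1 and from -0.97 to 0.78 at number 2. Of the 15 further genes of fatty acid and lipid synthesis, 5 were lower and 4 higher at both numbers, against 29.3% and 33.9% of all. Mlxip, a glucose-responsive transcription factor gene, read 521 and 373 in knockout against 262 and 234 in wild-type arrays (0.81, SE 0.298) and was the 1 tested gene of the list at least 1.5-fold higher at both numbers, against 1.46% of all tested genes.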

How the data were processed

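Total RNA of 4 fibroblast samples was hybridised to 1 array each. The authors deposited linear intensity values per probe set, and the submitters' processing notes name MAS5, with no version or settings. Trimmed means were 500 on every array, so differences are relative to each array's average. Control probe sets (64) were left out, which left 45037, of which 34945 had 1 gene symbol, 932 several and 9160 none. Platform gene identifiers of 34741 matched RefSeq.

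A pseudocount of 9.96, at percentile 20 of the deposited signals, was added before log2, which understates differences of dim genes. The brighter 50% of probe sets were tested with limma 3.58.1 in R 4.3.3 (lmFit, eBayes with an intensity trend, 2-sided, Benjamini-Hochberg over all 22519), on genotype alone, leaving 2 residual degrees of freedom. A gene was read through its brightest probe set (10714 genes). Every member is named, and other pathway genes at 1.5-fold at both numbers. The test was also run on simulated data, with and without a shift between numbers, and the outcome is not reported here. The members and lists were chosen with earlier results of these data known. Medians and counts over the members have no test. The number of arrays limits the precision. Alternatives were 3 normalizations, 2 pseudocounts, 2 filters, 2 variance models, the mean of probe sets, a replicate block and leaving out each array. Figures used matplotlib 3.10.9 in Python 3.11.15.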

Additional observations from a re-analysis of the deposited data

How the results depend on the processing

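Under the settings that kept all arrays, 493 recomputed values were called unchanged, 3 moved, 5 turned sign and 5 newly passed the threshold. Unchanged meant the same direction and side of the threshold for differences, and within 1.5-fold for counts. For medians it meant a shift below the spread of the 2 within-number medians. The filters, variance models and replicate block leave a gene's difference itself the same, so under them no sign could turn. The count of 493 thus does not measure how firm the differences are. The count of sterol synthesis genes lower at both numbers was 13 to 15. With the replicate number as a block, 447 probe sets and 266 of 10714 genes passed, Pagr1a among them (-3.51, adjusted p = 1.9e-05), and so did 4 of 35 members, Scd2 (adjusted p = 0.0199), Abca1 (0.0261), Fdft1 (0.0273) and Mvd (0.0377). Deviations of same-numbered arrays correlated at 0.805, but the labels do not say that a number marks a shared culture or day, and with 2 numbers the samples share only a number. The signs of some small differences turned. Acaca was at 0.0362 with the mean of probe sets and 0.0136 after median scaling, and with the mean of probe sets Elovl6 was at -0.0229, Insig2 at -0.0066 and Npc2 at 0.0862. The cause was not tested. Without 1 array, the difference ranged for Acaca from -0.22 to 0.14, for Acly from -0.18 to 0.54, for Elovl6 from -0.10 to 0.24, for Fasn from -0.18 to 0.30, for Hmgcs1 from -0.73 to 0.11, for Hsd17b7 from -0.38 to 0.0189 and for Idi1 from -0.80 to 0.38. It ranged for Insig1 from -0.82 to 0.24, for Insig2 from -0.0973 to 0.29, for Lpin1 from -1.12 to 0.19, for Mylip from -0.64 to 0.47, for Npc1 from -0.0353 to 0.74, for Npc2 from -0.34 to 0.0093 and for Nr1h3 from -0.51 to 0.11. It ranged for Nsdhl from -1.08 to 0.11, for Pmvk from -1.31 to 0.13, for Scap from -0.51 to 0.37, for Sqle from -0.66 to 0.0836, for Srebf1 from -0.75 to 0.30 and for Srebf2 from -0.48 to 0.16. Medians without 1 array ranged from -0.68 to -0.22 for sterol synthesis, from -0.14 to 0.21 for SREBP regulators, from -0.57 to 0.0614 for uptake, transport and export, from -0.26 to 0.14 for fatty acid synthesis, from -0.55 to -0.0225 for all members and from -0.0894 to 0.13 for other pathway genes. Differences that kept their sign but moved by over 1.5 times without 1 array were those of Mvd from -1.19 to -0.46, Fdps from -0.59 to -0.23, Fdft1 from -0.90 to -0.45, Lss from -0.88 to -0.21, Cyp51 from -0.34 to -0.0924, Tm7sf2 from -0.98 to -0.23, Ebp from -0.80 to -0.33, Dhcr7 from -0.64 to -0.0930, Stard4 from -0.86 to -0.0225, Scd1 from -0.85 to -0.37 and Fads2 from -0.56 to -0.15. Fits without 1 array hold unequal numbers in the genotypes. With any 1 array left out, 0 members passed. With 2 arrays a genotype and genotype as the only term, no difference of any size passed, that of Pagr1a included (adjusted p 0.876 by limma). A member that did not pass may thus still differ.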
